A study of Mus musculus with 4 samples.

Results

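The complement system was followed through 9 genes in single-cell RNA-seq of the mouse digit tip: the initiators C1qa, C1qb and C1qc, the central components C4b, C3 and Cfb, the receptors C3ar1 and C5ar1, and the membrane regulator Cd55. They were chosen by gene symbol, each symbol matched 1 row, and together they are 9 of the 33696 genes counted. The Ensembl gene identifiers in the files were ENSMUSG00000036887 for C1qa, ENSMUSG00000036905 for C1qb, ENSMUSG00000036896 for C1qc, ENSMUSG00000024164 for C3, ENSMUSG00000073418 for C4b, ENSMUSG00000090231 for Cfb, ENSMUSG00000040552 for C3ar1, ENSMUSG00000049130 for C5ar1 and ENSMUSG00000026399 for Cd55. Hindlimb digits 2 to 4, labelled as P3 digit, of female C57BL/6 mice (C57BL/6J in the methods) aged 6 to 8 weeks were dissociated, and each library pooled 10 mice. By the paper's methods these digits were cut at the proximal end of P2, the phalanx next to P3, so the tissue was not only the P3 segment. In every library the P3 tip had been amputated beforehand and was regenerating, a treatment that the control libraries share. The methods describe this amputation on digits 2 and 4, and whether the digit between them was cut is not stated. The SAR131675 library came from mice that ate chow with 30 mg/kg of SAR131675, an inhibitor of the lymphatic growth factor receptor VEGFR3, for 8 days, and its comparator came from mice on control diet. The LNR library came from the limb whose inguinal and popliteal lymph nodes had been removed, and its comparator, called sham here, came from the contralateral limb, which the sample label describes as untreated. There was 1 library per condition and each had a batch of its own, so treatment and batch cannot be told apart, nor, in the SAR131675 pair, treatment and mouse pool, and no test between conditions was possible.

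Complement is a cascade of blood and tissue proteins that marks microbes, dying cells and debris. C1q, built from the A, B and C chains encoded by C1qa, C1qb and C1qc, starts the classical pathway when it binds a target; C4b encodes C4, which is cleaved next and anchors the enzyme that cleaves C3, while factor B, from Cfb, forms the amplifying enzyme of the alternative pathway. The cleavage fragments C3a and C5a call and activate myeloid cells through the receptors C3AR1 and C5AR1, and CD55 speeds the decay of the C3-cleaving enzymes on the host's own cells. Much plasma complement is made in the liver, and macrophages and stromal cells are known local sources in injured tissue.

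After limits on genes, unique molecular identifiers (UMIs, each one counted RNA molecule) and mitochondrial share, the SAR131675 library kept 29076 of its 38464 cells, control diet kept 24030 of 30831, LNR kept 19827 of 21669 and sham kept 20669 of 22539. The median cell held 11316, 10712, 5725 and 5851 UMIs in that order, which is the order of libraries in every list of 4 values below. The SAR131675 and control diet libraries shared 348 barcodes, LNR and sham shared 130, and any other pair of libraries shared at most 3. The file headers name a newer Cell Ranger version for the SAR131675 pair than for the LNR pair, and the pairs also differ in depth, so levels were compared within a pair and only set side by side between pairs. Levels are in CPM, the UMIs of a gene divided by the UMIs of all genes in the summed cells of a class and library, times 1e+06. Intervals are exact 95% intervals and cover counting error only. UMIs from the 3′ end were not scaled to gene length, so no level was compared between genes.

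Clusters were formed without any complement gene and named from marker genes, giving 23 named classes with at least 50 cells in every library; between 19.8% and 21.7% of cells stayed unnamed. Macrophage-like cells had all 10 macrophage markers (Mrc1, Cd163, Adgre1, Csf1r and others) above the level in the other named classes in each library. The same held for all 8 neutrophil markers in neutrophil-like cells, all 7 fibroblast markers in fibroblast-like cells and all 5 lining markers in synovial lining-like cells, while adventitial fibroblast-like cells passed on 6 of 7 markers in the SAR131675 pair and 7 of 7 in the LNR pair. None of the markers of these 5 classes was at 0. The 9 members fell into a myeloid group (C1qa, C1qb, C1qc, C3ar1, C5ar1), a stromal group (C3, Cfb, Cd55) and C4b, which was found in both myeloid and stromal cells and in glia, as the map of mean levels by class shows.

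**Figure D1:**
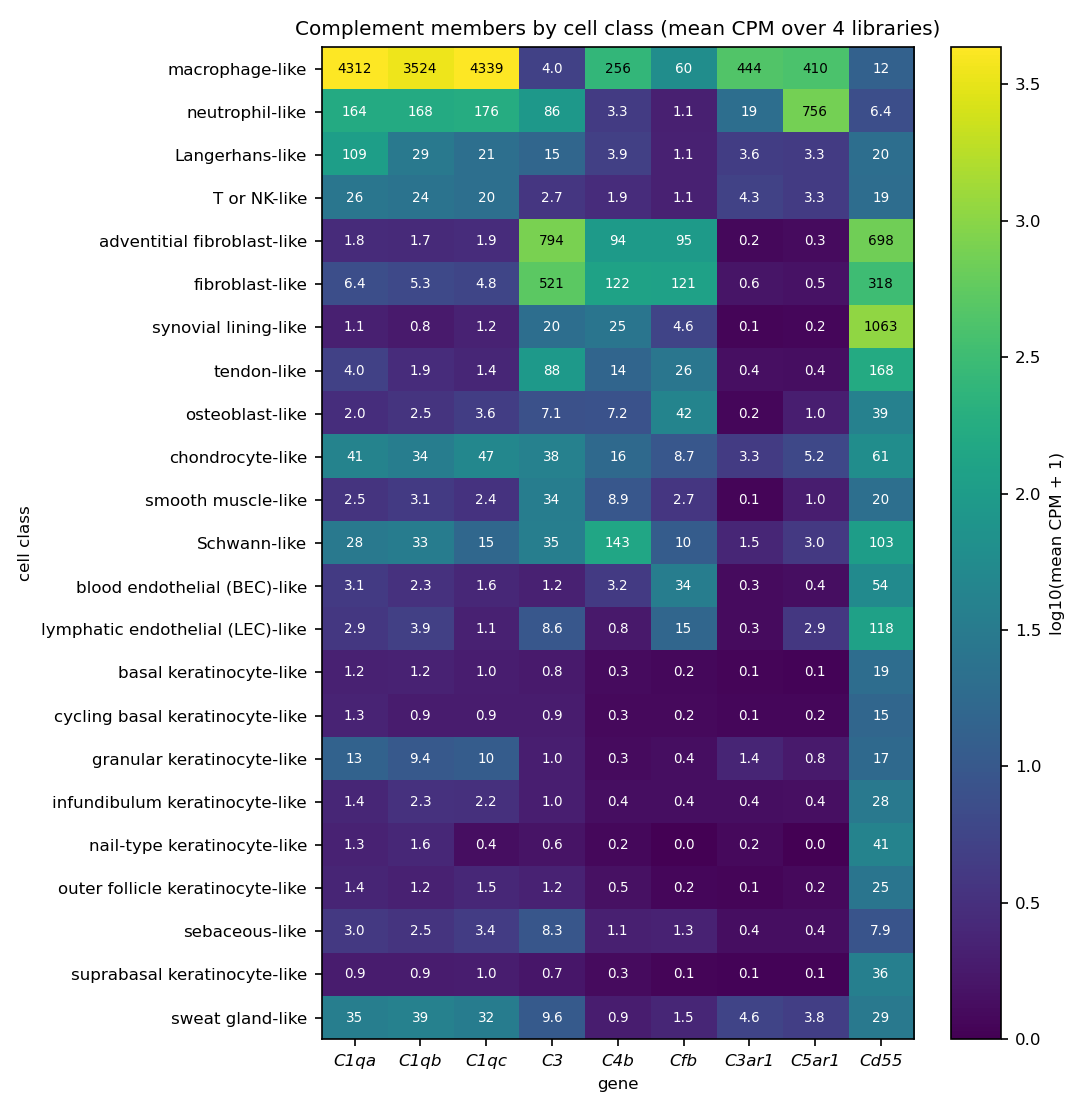
Mean level (CPM, mean of the 4 libraries, printed in each cell and coloured as log10 of CPM + 1) of the 9 complement genes (columns) in the 23 ranked cell classes (rows). C1qa, C1qb, C1qc and C3ar1 were highest in macrophage-like cells, as was the mean of C4b (Schwann-like cells were higher in both libraries of the SAR131675 pair), C5ar1 in neutrophil-like cells, C3 and Cfb in the fibroblast classes and Cd55 in synovial lining-like cells.

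The C1q chains marked macrophages. The level of C1qa in macrophage-like cells was 3962, 3913, 4645 and 4728 CPM, a mean of 4312 ± 434 (SD over the 4 libraries). C1qb stood at 3113, 3528, 3745 and 3709 CPM in the same cells. C1qc stood at 4734, 4934, 3873 and 3813 CPM. Each of these ranges lay above the range of every other ranked class. Transcripts of C1qa were found in 98.98%, 98.81%, 98.38% and 97.78% of macrophage-like cells, against 1.541%, 0.8694%, 1.195% and 1.033% of suprabasal keratinocyte-like cells, which should lack the gene and give the background from free RNA; the median macrophage-like cell held 7807, 7226, 2913 and 2736.5 UMIs. With each cell thinned to 1500 UMIs, the shares were 97.92%, 97.58%, 98.59% and 98.52% for macrophage-like cells and between 0.1001% and 0.2286% for the keratinocytes. All 3 chains were found together in 97.96%, 97.39%, 93.67% and 93.52% of macrophage-like cells.

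The promoters of C1qb and C1qc, neighbours on chromosome 4, are shown because these genes had the most alike profiles of any pair among the members. The 250 bases before the start of each gene come from RefSeq for GRCm38.p6 and lie on the minus strand at chr4:136886201-136886450 for C1qb and chr4:136892915-136893164 for C1qc. Capitals mark GAGGAA, a core letter string of the myeloid factor PU.1 and its relatives, or its reverse complement.
C1qb: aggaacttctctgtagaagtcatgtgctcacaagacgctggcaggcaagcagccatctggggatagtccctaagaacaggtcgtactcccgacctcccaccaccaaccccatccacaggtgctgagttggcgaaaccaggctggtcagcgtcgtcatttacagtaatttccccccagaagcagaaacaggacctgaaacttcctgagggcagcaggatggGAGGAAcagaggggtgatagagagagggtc
C1qc: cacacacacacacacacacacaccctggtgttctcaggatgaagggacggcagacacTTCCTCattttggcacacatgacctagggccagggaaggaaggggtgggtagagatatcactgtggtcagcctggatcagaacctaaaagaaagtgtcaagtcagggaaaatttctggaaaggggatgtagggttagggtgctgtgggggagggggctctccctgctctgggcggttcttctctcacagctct
The match in C1qb began 30 bases before the start of the gene and that in C1qc 193 bases before it, on the other strand. On either strand, 23.3% of the 32851 promoters in the table hold GAGGAA. Promoters were given for 6 of the 9 members (C1qb, C1qc, C3, C3ar1, C5ar1 and Cd55), and the other 4 did not hold GAGGAA. None of the 6 held TTGCNNNAA, a C/EBP string that 8.29% of promoters hold, or GAAA followed after 2 bases by GAAA, an interferon-response string that 2.98% hold. GGG followed after 5 bases by CC, a loose NF-kB string, was found in all but C5ar1 and is in 45.8% of promoters; matches to it may overlap each other and lie on both strands. These matches are letters in a window and not measured binding.

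Macrophage-like cells did not hold all of the C1q RNA. They carried 62.8%, 62.9%, 45.7% and 48.1% of the C1qa UMIs of all kept cells. A separate small cluster led by Vsig4 and Trem2 (82, 67, 145 and 113 cells), which stayed unnamed and whose leading genes were read after its values were seen, carried a further 17.8%, 18.6%, 22.8% and 19.96%. All unnamed cells together, this cluster included, held 27.97%, 29.41%, 50.59% and 47.74% of the C1qa UMIs, so in the LNR pair a large share lay in unnamed cells outside it. VSIG4 is itself a complement receptor of tissue macrophages, and TREM2 a lipid and debris receptor. In that cluster C1qa reached 6437, 5867, 5813 and 6252 CPM, above the macrophage-like level in each library. C1qb was 4204, 4485, 4588 and 4876 CPM, also above the macrophage-like level in each library. C1qc was 6835, 6610, 4353 and 4695 CPM, again above it in each library.

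A monocyte-like class, led by Camp, Ngp and S100a8 as well as the monocyte markers Plac8, Cybb and Ccr2 in the SAR131675 pair, was not ranked because sham held 42 of its cells (198, 132 and 52 in the others). Its C1qa was 1284 and 1382 CPM in the SAR131675 pair, in 48.48% and 56.06% of cells, and 87.49 and 0 CPM in the LNR pair. It carried 5.972% and 5.735% of the C1qa UMIs of the SAR131675 pair, and as the pairs were clustered separately it may not hold the same cells in both. Among the other ranked classes the C1q level was low. Neutrophil-like cells ranked next for C1qa at 72.2, 191.5, 151.6 and 241.8 CPM, where 1, 2, 4 and 5 cells held 83 of 83, 145 of 149, 85 of 88 and 176 of 179 C1q UMIs. Langerhans-like cells, the dendritic cells of the epidermis, held C1qa at 118.9, 79.67, 108.7 and 128.1 CPM, and here the UMIs were spread over cells: 47.3%, 31.3%, 45.2% and 41.3% of them had at least 1. C1qb was found in 7.821% to 15.32% of Langerhans-like cells and C1qc in 5.389% to 7.821%. The A chain thus made up 73.08%, 71.01%, 67.91% and 64.86% of their C1q UMIs, against 33.55%, 31.62%, 37.88% and 38.60% in macrophage-like cells, and the 95% intervals of the classes did not overlap in any library. All 3 chains were found together in 2.235% to 4.192% of Langerhans-like cells.

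**Figure D2:**
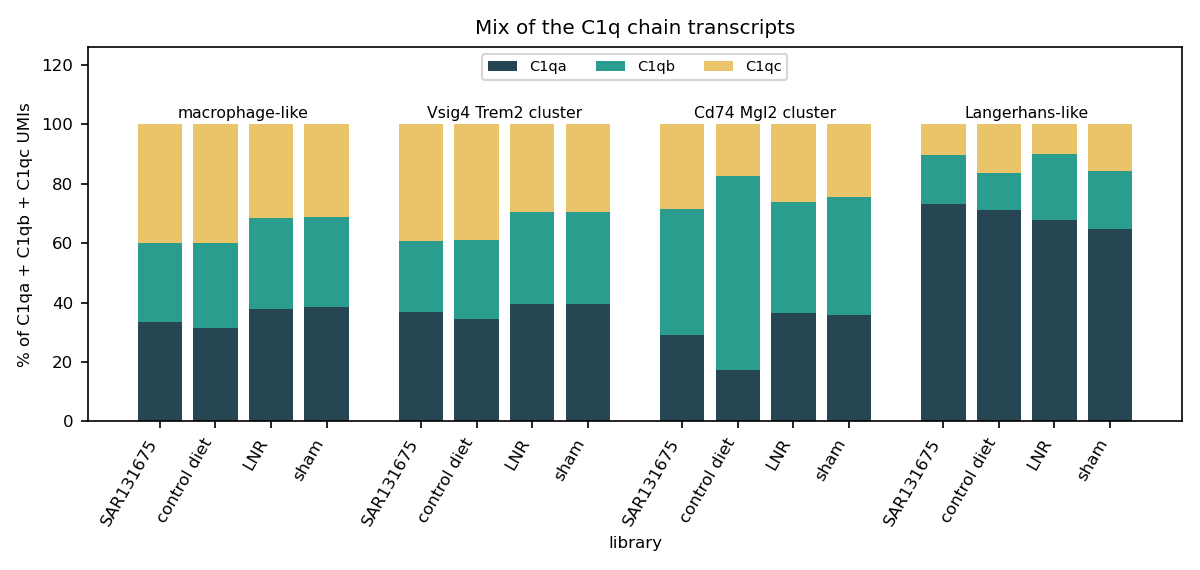
Stacked bars of the share (percent) of C1qa, C1qb and C1qc among all C1q UMIs, 1 bar per library, in macrophage-like cells, the Vsig4 and Trem2 cluster, a cluster led by Cd74 and Mgl2, and Langerhans-like cells. C1qa made up 64.86% to 73.08% in Langerhans-like cells and 31.62% to 38.60% in macrophage-like cells.

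The mix of chains in macrophage-like cells also differed between the pairs of libraries. C1qc gave 40.09% and 39.87% of C1q UMIs in the SAR131675 pair but 31.58% and 31.13% in the LNR pair, while treated and control libraries of the same pair lay close together. Cell Ranger version, depth and batch all differ between the pairs, and their part in this was not tested.

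C4b was shared by macrophages, glia and fibroblasts. In macrophage-like cells it stood at 200.5, 204.7, 326.8 and 292.8 CPM, a mean of 256.2 ± 63.4 (SD, 4 libraries), and was found in 52.86%, 54.16%, 43.18% and 38.40% of cells, against at most 0.683% of suprabasal keratinocyte-like cells. Schwann-like cells, the glia of peripheral nerve, came next in the mean but spread widely at 213.6, 297.9, 5.935 and 53.62 CPM. Fibroblast-like cells held 88.97, 98.66, 154.3 and 146.3 CPM. Adventitial fibroblast-like cells held 79.35, 81.27, 114.4 and 101.7 CPM, below the fibroblast-like level in each library. Macrophage-like and Schwann-like ranges overlapped, and Schwann-like cells were the higher class in both libraries of the SAR131675 pair. With cells chosen by marker UMIs in place of clusters, Schwann-like cells led at a mean of 146.3 CPM. C4b has a near-identical neighbour, C4a, so reads of these genes may be divided between them; C4a itself had 173 UMIs over the kept cells of all libraries.

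The Schwann-like class joined 2 clusters in the SAR131675 pair and held 1 in the LNR pair, with 291, 187, 58 and 66 cells, so its C4b values are not like for like between the pairs. Among myeloid cells the Vsig4 and Trem2 cluster held less C4b than macrophage-like cells in each library, at 60.07, 69.15, 78.56 and 92.5 CPM, the opposite order to the C1q chains. Its Cfb was lower too, at 1.465, 12.87, 7.989 and 13.21 CPM, against 44.6 to 77.63 CPM in macrophage-like cells.

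**Figure D3:**
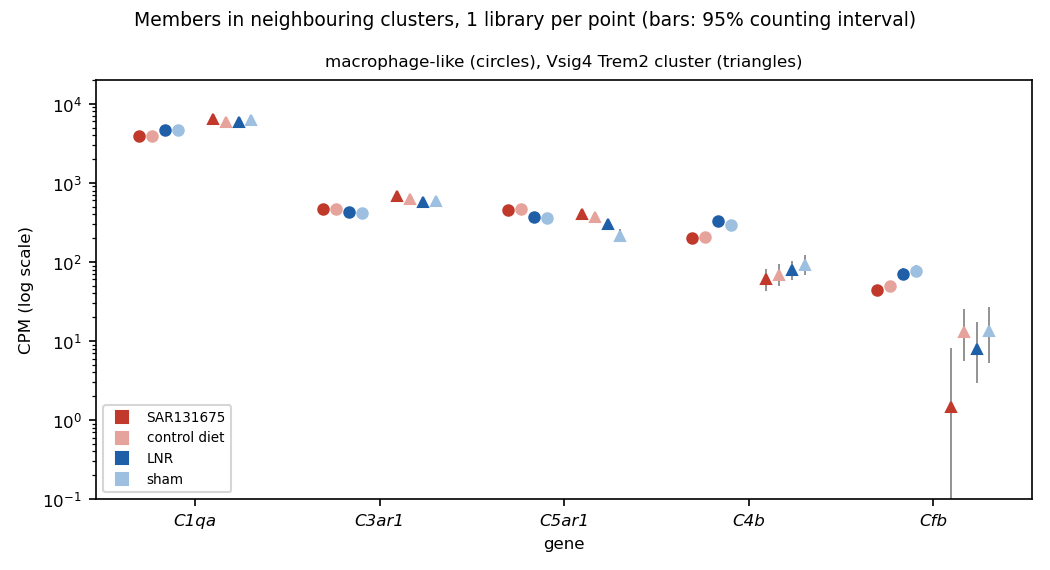
Level (CPM, log axis) of C1qa, C3ar1, C5ar1, C4b and Cfb in macrophage-like cells (circles) and the Vsig4 and Trem2 cluster (triangles), 1 point per library with its exact 95% Poisson interval. C1qa and C3ar1 were higher and C4b and Cfb lower in the Vsig4 and Trem2 cluster in each library.

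C3, the protein on which all complement pathways meet, was highest in the fibroblast classes. Adventitial fibroblast-like cells, fibroblasts of the sheath around vessels, held 465.9, 572.1, 1064 and 1074 CPM, a mean of 793.9 ± 320 (SD, 4 libraries). Fibroblast-like cells held 334.4, 400.1, 710.4 and 637.9 CPM, below the adventitial level in each library although the ranges over all libraries overlapped. Tendon-like cells followed in the mean at 17.2, 55.3, 123.6 and 156.6 CPM. Neutrophil-like cells were close behind at 56.17, 110.1, 84.59 and 92.33 CPM, and were above tendon-like cells in both libraries of the SAR131675 pair. C3 was found in 62.37%, 63.49%, 71.77% and 72.20% of adventitial fibroblast-like cells, or 34.69%, 38.73%, 58.45% and 61.15% with each cell thinned to 1500 UMIs, against 0.6406% to 1.252% of suprabasal keratinocyte-like cells. The adventitial class held 34.0% to 38.4% of all C3 UMIs and the larger fibroblast-like class 38.0% to 53.4%.

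Within fibroblast-like cells C3 was uneven. Pi16, a marker of the adventitial class, was also the first leading gene of a fibroblast-like cluster in the SAR131675 pair, in which C3 was 86.45 and 197.8 CPM. A cluster led by Comp, Igf1 and Inmt, with C3 itself among its leading genes, held 803.2, 799.9, 1354 and 1224 CPM and was above the adventitial class in each library. At the other end a cluster led by Lrrc15 and Col11a1, collagen-rich cells with the matrix protease Mmp11, held C3 at 2.602, 6.84, 12.45 and 36.05 CPM. The Lrrc15 and Col11a1 cells also had C4b at no more than 1.037 CPM and Cfb at no more than 4.006 CPM, but Cd55 at 255, 170.2, 89.2 and 118.8 CPM. Fibroblast-like cells thus ranged from strong to nearly absent expression of C3, C4b and Cfb, and these clusters too were picked after their values were seen. In macrophage-like cells the mean C3 level was 4.0 CPM.

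Cfb, which encodes factor B, was highest in fibroblast-like cells. Fibroblast-like cells held 104.6, 103, 137.3 and 137.4 CPM, a mean of 120.6 ± 19.4 (SD, 4 libraries). Adventitial fibroblast-like cells held 73.31, 74.83, 115.4 and 115.4 CPM, lower in each library with overlapping ranges over all libraries. Macrophage-like cells came next at 44.6, 48.88, 70.44 and 77.63 CPM. Cfb was found in 33.46%, 33.76%, 26.93% and 27.41% of fibroblast-like cells, against at most 0.2277% of suprabasal keratinocyte-like cells. C3 and Cfb were found in the same cell in 20.44%, 20.75%, 18.83% and 18.16% of fibroblast-like cells. In osteoblast-like cells Cfb was 66.45, 35.9, 39.26 and 26.68 CPM.

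Cfb was also present in part of the blood vessel lining. Over all blood endothelial-like cells it was 28.29, 29.61, 36.42 and 39.69 CPM. In the larger clusters with Sele and Ackr1 among their leading genes, adhesion and chemokine-binding molecules of venules, it reached 48.48 and 65.53 CPM in the SAR131675 library, 58.95 and 67.22 CPM with control diet, 67.44 CPM in LNR and 80.77 CPM in sham. Blood endothelial clusters without Ackr1 among their leading genes held between 0 and 15.25 CPM. A further Ackr1 cluster of low depth in the SAR131675 pair gave 28.63 and 10.81 CPM from 3 UMIs and 1 UMI.

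Among ranked classes the anaphylatoxin receptors divided between macrophages and neutrophils. C3ar1 was highest in macrophage-like cells at 463.2, 466.6, 422.7 and 421.4 CPM, a mean of 443.5 ± 24.8 (SD, 4 libraries), and the next ranked class, neutrophil-like cells, had a mean of 19.3 CPM. The unranked monocyte-like class held C3ar1 at 262.1, 263.1, 9.209 and 13.16 CPM, with 9.872% and 8.917% of all C3ar1 UMIs in the SAR131675 pair. Its C5ar1 was 187, 213.9, 36.84 and 39.48 CPM. C5ar1 was highest in neutrophil-like cells at 941.4, 962.2, 539.3 and 580.3 CPM, a mean of 755.8 ± 227 (SD, 4 libraries). Macrophage-like cells held C5ar1 at 450.1, 461.9, 368.1 and 360.9 CPM, below the neutrophil-like range and far above the ranked class after them, at a mean of 5.18 CPM. Macrophage-like cells carried 57.2%, 61.2%, 39.9% and 45.8% of all C5ar1 UMIs, and neutrophil-like cells 11.5%, 8.45%, 8.78% and 9.92%. Of all C3ar1 UMIs, macrophage-like cells carried 59.46%, 61.25%, 42.47% and 46.05%. Unnamed cells carried 27.71%, 28%, 54.71% and 49.55%, more than macrophage-like cells in the LNR pair. Macrophage-like cells thus held the larger part of both receptors among ranked classes only, and neutrophil-like cells had C5ar1 with little C3ar1.

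C3ar1 and C5ar1 were found in the same cell in 78.78%, 79.10%, 40.75% and 36.01% of macrophage-like cells, and in 24.17%, 24.64%, 19.72% and 18.35% with each cell thinned to 1500 UMIs, where the gap between the pairs was smaller. In neutrophil-like cells both were found together in at most 1.266%. The Vsig4 and Trem2 cluster held C3ar1 at 687.2, 617.5, 567.2 and 589.0 CPM, above macrophage-like cells in each library. C5ar1 in that cluster was lower than in macrophage-like cells in each library, at 408.8, 365.1, 304.9 and 215.2 CPM. A cluster led by Cd74 and Mgl2, genes of antigen-presenting cells, held less C3ar1, at 63.77, 84.2, 91.79 and 101.3 CPM. Its C1qa was 43.7 and 15.42 CPM in the SAR131675 pair and 645 and 544.2 CPM in the LNR pair; each pair was clustered separately, so this cluster may not hold the same cells in both.

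Cd55, the regulator that dismantles C3-cleaving enzymes, peaked in the joint lining. Synovial lining-like cells held 1152, 1504, 821.8 and 773.2 CPM, a mean of 1063 ± 339 (SD, 4 libraries), and 89.44% to 92.63% of them had a Cd55 UMI. Adventitial fibroblast-like cells followed at 828.1, 834.4, 573.7 and 557.7 CPM, lower in each library with overlapping ranges. Fibroblast-like cells held 475.7, 428.9, 188.4 and 180.5 CPM, below the adventitial class in each library, and tendon-like cells 217.7, 187.7, 151.3 and 116.5 CPM. Lymphatic endothelial-like cells, the vessels that VEGFR3 serves, held 144.0, 137.7, 97.45 and 94.59 CPM. Cd55 was spread over more classes than any other member, with at least 50 UMIs over the SAR131675 pair in 20 classes and over the LNR pair in 19. Suprabasal keratinocyte-like cells had it at 43.58, 46.20, 27.17 and 25.44 CPM, whereas macrophage-like cells had no more than 15.89 CPM. B lineage-like cells, with 30 to 68 cells per library, held 859.9, 659.1, 359.4 and 268.3 CPM and stayed outside the ranking because of their number. Cd55 also has a close copy, Cd55b, which reached at most a mean of 11.18 CPM in any ranked class.

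**Figure D4:**
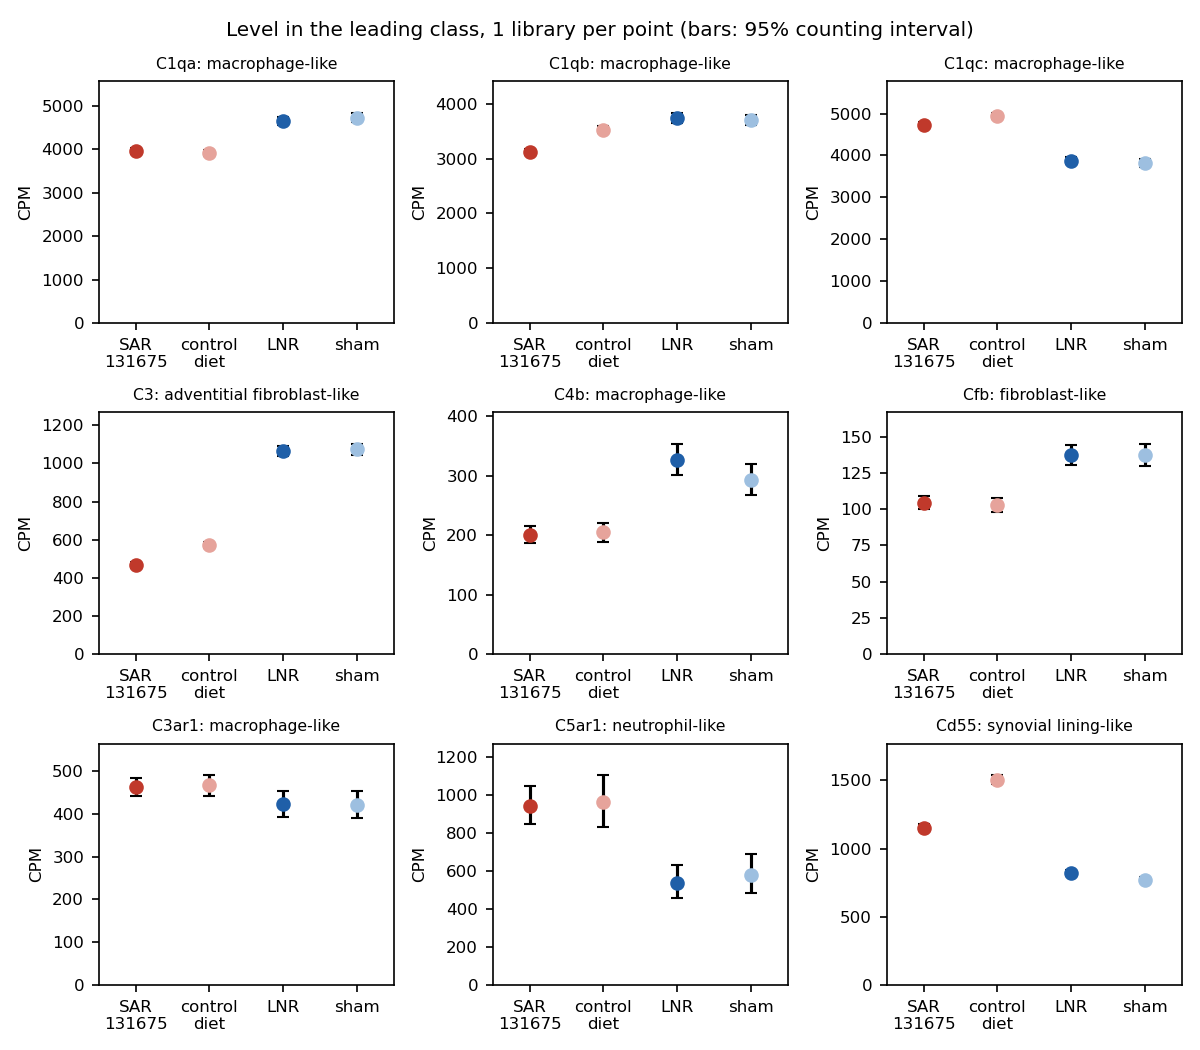
Level (CPM) of each complement gene in its leading class, 1 point per library with its exact 95% Poisson interval. Treated and control libraries of a pair lay within 1.5-fold for all 9 genes. C1qa, C1qb, C3, C4b and Cfb lay higher in the LNR pair than in the SAR131675 pair, and C1qc, C3ar1, C5ar1 and Cd55 lower. The pairs differ in Cell Ranger version and depth, so they are only set side by side.

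The comparison of SAR131675 with control diet asked whether blocking VEGFR3 went with other complement transcript levels, and LNR against sham asked the same of lymph node removal. With a gene called different at 1.5-fold or more among genes with at least 50 UMIs over both libraries, 0 of the 9 members were called in their leading class in either pair. The same rule called 5.74% of genes in the SAR131675 pair and 4.86% in the LNR pair in macrophage-like cells, 6.25% and 3.02% in fibroblast-like cells, 5.23% and 2.92% in adventitial fibroblast-like cells, 21.2% and 11.6% in neutrophil-like cells, and 6.57% and 3.93% in synovial lining-like cells. Against these backgrounds, a count of 0 among 9 members is no result about them.

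For SAR131675 the largest differences in a leading class were in Cd55 and C3. Cd55 in synovial lining-like cells had a log2 ratio of -0.38 (95% interval -0.43 to -0.34). C3 in adventitial fibroblast-like cells had a log2 ratio of -0.30 (-0.36 to -0.24), and its ratio in fibroblast-like cells was -0.26. C1qb in macrophage-like cells had a log2 ratio of -0.18 (-0.22 to -0.14), while C1qa there had 0.018 (-0.016 to 0.052) and C1qc -0.060 (-0.091 to -0.029). For C4b, Cfb, C3ar1 and C5ar1 the intervals included 0, and their log2 ratios lay between -0.032 and 0.023. The interval for C5ar1 in neutrophil-like cells, -0.29 to 0.23, was the widest.

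For LNR every leading-class log2 ratio lay between -0.11 and 0.16. C4b in macrophage-like cells had the largest at 0.16 (-0.014 to 0.33), and Cd55 in synovial lining-like cells had 0.088 (0.032 to 0.14), the 1 interval of 9 that excluded 0. C3 in adventitial fibroblast-like cells had -0.013 (-0.066 to 0.039), and Cfb in fibroblast-like cells -0.001 (-0.11 to 0.11).

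**Figure D5:**
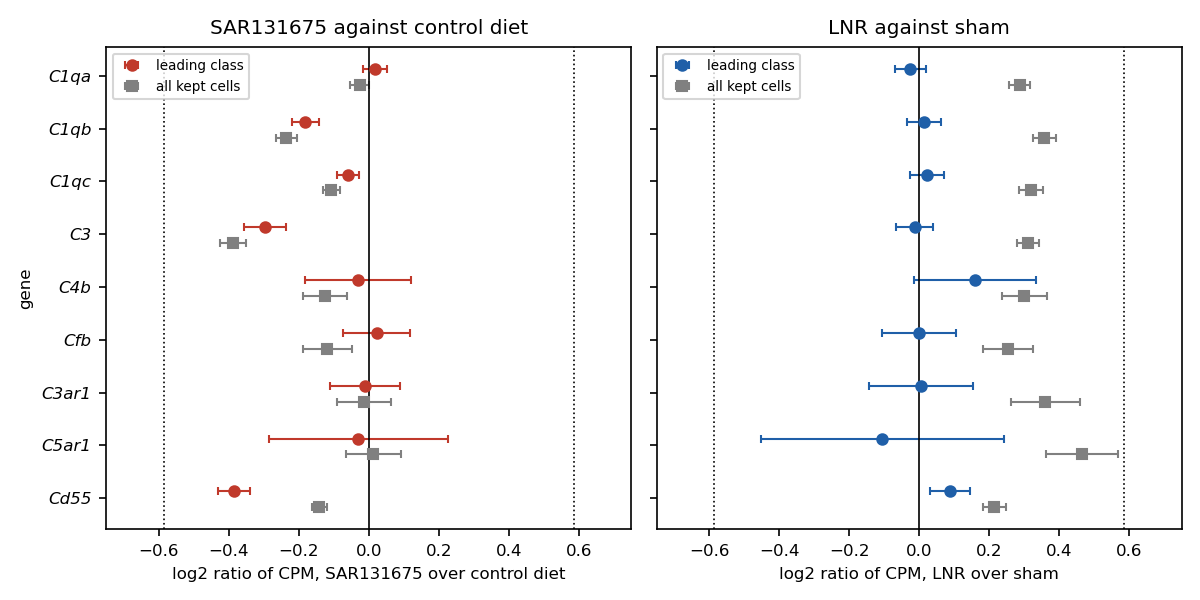
Log2 ratio of CPM, treated over control library, of each complement gene in its leading class (circles) and over all kept cells (grey squares), for the SAR131675 pair and the LNR pair, with exact 95% intervals for counting error and dotted lines at 1.5-fold. The 18 ratios in leading classes lie inside the dotted lines, and the LNR ratios over all kept cells lie between 0.21 and 0.46.

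Over all kept cells, without classes, the picture for LNR differed. All 9 members were higher in LNR than in sham, with log2 ratios from 0.21 for Cd55 to 0.46 for C5ar1, although none reached 1.5-fold, which 3.68% of genes did. The share of all genes higher in LNR was not computed. The median log2 ratio of genes with at least 50 UMIs was 0.021. Beside this, the LNR library held larger shares of the cells that carry the members: 3.11% against 2.84% macrophage-like cells, 13.2% against 11.0% fibroblast-like cells, 7.38% against 6.47% adventitial fibroblast-like cells, 1.10% against 0.876% neutrophil-like cells and 0.731% against 0.547% of the Vsig4 and Trem2 cluster. Synovial lining-like cells differed less, at 3.58% against 3.56%. The part of these cell shares in the ratios over all kept cells was not tested. In SAR131675 against control diet the ratios over all kept cells ran from -0.39 for C3 to 0.014 for C5ar1, where 6.79% of all genes were called.

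In synovial lining-like cells members other than Cd55 differed as well. In the SAR131675 pair 3 of the 4 members with enough UMIs there were called, all higher with SAR131675. Of all genes with enough UMIs there, 2.74% were called higher and 6.57% were called either way. C3 was 24.43 against 12.24 CPM, a log2 ratio of 1.00 (0.56 to 1.45). C4b was 43.56 against 25.46 CPM, a log2 ratio of 0.77 (0.47 to 1.09), and was found in 22.03% against 15.01% of the cells. Cfb was 6.43 against 1.974 CPM, a log2 ratio of 1.70 (0.68 to 2.87) that rests on 40 and 10 UMIs in 18 and 9 cells. The 1% of cells with the most UMIs of the gene held 55% and 50% of these Cfb UMIs, and 52.63% and 53.23% of the C3 UMIs, so few cells held much of both signals. In the same cells Cd55 was lower with SAR131675, as given above. In the LNR pair C3 had the opposite sign in these cells, at 14.35 against 27.75 CPM or a log2 ratio of -0.95 (-1.33 to -0.58), with 63.04% and 46.11% of the UMIs in the top 1% of cells. C4b kept its sign at 19.18 against 13.1 CPM, a log2 ratio of 0.55 (0.14 to 0.97) whose interval excluded 0 but whose size was under the 1.5-fold needed for a call. Cfb was called higher at 6.083 against 3.854 CPM with an interval that included 0.

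Smaller stromal classes held other called ratios of C3, Cfb and Cd55. In tendon-like cells C3 was lower with SAR131675, 17.19 against 55.27 CPM, where 15.1% of genes were called, and Cfb was lower with LNR, 29.84 against 56.29 CPM, where 6.26% were called. In osteoblast-like cells Cfb was higher with SAR131675, 66.45 against 35.9 CPM, where 11.2% were called. In chondrocyte-like cells C3 was lower in the treated library of both pairs, at 15.0 against 40.5 CPM with SAR131675 and 22.2 against 76.1 CPM with LNR, from 18 to 43 UMIs per library; 16.2% and 8.83% of genes were called there. Among chondrocyte-like cells, Scrublet marked 28 of 130 as likely doublets (barcodes with mixed cells) with SAR131675 and 0 of 99 with control diet. In LNR it marked 13 of 144 and in sham 5 of 94. Their part in these ratios was not tested. Cd55 in chondrocyte-like cells was 43.33 CPM with SAR131675 against 119.4 CPM with control diet. Smooth muscle-like cells had Cd55 at 24.51 against 1.945 CPM in this pair, from 57 and 3 UMIs, where 8.14% of genes were called. In the LNR pair, where 7.2% were called, the same class had Cd55 at 19.86 against 34.03 CPM, with an interval that included 0, and C3 at 43.85 against 86.72 CPM, a log2 ratio of -0.98 (-1.51 to -0.46).

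The rest of the complement system was followed through a list of 44 other genes, of which 17 reached a mean of 100 CPM in some ranked class. Of 15 other genes that start the classical and lectin pathways 5 did so: the C1 proteases C1ra (205.9 CPM) and C1s1 (357.1 CPM) in adventitial fibroblast-like cells, Fcna, a ficolin, in macrophage-like cells (153.9 CPM), Masp1, a lectin pathway protease, in fibroblast-like cells (148.4 CPM) and Colec12, a scavenger receptor with a collectin domain, in osteoblast-like cells (918.9 CPM). The initiator C1q and the proteases that bind it were thus led by different classes. Of 2 alternative pathway genes Cfp, which encodes the stabiliser properdin, reached 305.1 CPM in macrophage-like cells. None of 7 terminal component genes reached 100 CPM.

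Regulators were high in stroma. Among soluble regulators Serping1, the C1 inhibitor, reached 2116 CPM in fibroblast-like cells and Clu, which encodes clusterin, 2940 CPM in tendon-like cells. Of 8 membrane regulators 4 did so: Cd59a in Schwann-like cells (264.7 CPM), Cr1l, the rodent regulator CRRY, in blood endothelial-like cells (178.8 CPM), Susd4 in lymphatic endothelial-like cells (139 CPM) and Csmd1 in Schwann-like cells (2057 CPM). The Csmd1 mean joins 4119 and 4097 CPM in the SAR131675 pair with 11.87 and 0 CPM in the LNR pair, whose Schwann-like class held 1 cluster and whose Cell Ranger version is older; their part in this was not tested. Of 6 other receptors 4 reached the mark: Itgam in macrophage-like cells (373.2 CPM), Itgb2 in neutrophil-like cells (255.6 CPM) and Itgax in Langerhans-like cells (108.1 CPM), the chains of complement receptors 3 and 4, and Cd93 in blood endothelial-like cells (886.6 CPM).

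Genes with the most similar class profiles were found by Pearson's r of log2(CPM + 10) over the 23 classes, among 8649 genes, as a description without a test; the points share libraries and depth. C1qb and C1qc were each other's nearest at r = 0.998, followed by Pf4 and Lair1 for both, and C1qa was nearest to C1qb (0.985), Ms4a6c (0.984) and Ly86 (0.979). C3ar1 was nearest to Ms4a7 (0.998), Gm56663 (0.997) and Pld4 (0.995), and C5ar1 to Cd33 (0.997), Cd300lb (0.993) and Clec12a (0.991). Pf4 and Ms4a7 are among the macrophage markers used to name classes. C3 was nearest to Pi16 (0.961), one of the adventitial markers, then Dpep1 (0.903) and Scg3 (0.892). Cfb was nearest to Igf1 (0.96), Cmtm3 (0.898) and Ifi211 (0.884), C4b to Abca9 (0.867), Cmklr1 (0.859) and Ccl7 (0.849), and Cd55 to Gm15675 (0.926), Thbd (0.912) and Fam124a (0.909). The nearest profiles to the myeloid members reached 0.985 to 0.998, and that to C4b, the gene spread over glia, fibroblasts and macrophages, reached 0.867. For a member high in few classes r rests mostly on those classes, so these values are not like for like with that of C4b. C3ar1, for example, had means of 443.5 CPM in macrophage-like cells and 19.3 CPM in the next class.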

How the data were processed

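The values the authors deposited are UMI counts, not normalized, of each gene in each barcode of 10x 3′ libraries, made with Cell Ranger (6.1.2 per the submitters' processing notes; the file headers give 6.1.2 for the LNR pair and 8.0.1 for the SAR131675 pair) and used GRCm39. From version 7, Cell Ranger counts intronic reads by default. Total UMIs over the deposited barcodes were 585284877 (SAR131675), 448276501 (control diet), 168507188 (LNR) and 175998346 (sham). No deposited column of values was set aside.

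Barcodes with 200 to 5500 genes, at most 30000 UMIs and at most 10% mitochondrial UMIs were kept. Each pair of libraries was clustered on its own in scanpy 1.11.5 (2000 variable genes without the complement list, 30 principal components, 20 neighbours, resolution 0.7, then a second clustering at 0.7). A cluster was named from fixed markers by scaled marker score (at least 0.65, or 0.8 with no marker among its 10 leading genes) with at least 3 markers detected; these naming limits were set after the clusters were seen. Scrublet marked 0.8947% to 7.006% of cells as doublets, where 15.86% to 23.26% were expected at 0.8% per 1000 cells. The marked cells were kept, and were removed as an alternative. Levels are CPM of UMIs summed per class and library, with exact Poisson, Clopper-Pearson and conditional intervals (scipy 1.17.1); the calculation was tested on simulated data. A count of 0 allows up to 3 counts. With 1 library per condition no p-value was computed. Named with values were the 9 members, complement genes of at least 100 CPM in a ranked class, and the 3 most similar genes of each member; clusters named by leading genes were chosen after their values were seen. The members and lists were chosen with earlier results of these data known. The study text places these libraries at 8 days after amputation and, in 1 legend, at 5. Alternatives covered scaling, cell filters, resolution, marker-based cell choice, doublets and the UMI minimum. Some genes, and clusters named by them, are not reported here.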

Additional observations from a re-analysis of the deposited data

Results flagged for a closer look

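Between libraries, 4 ratios of at least 1.5-fold in classes where at least 10% of cells of either library had a UMI of the gene had the opposite sign to the ratio of the same gene in its leading class, with both counting intervals clear of 0; none of these differences was tested across samples. How many of all genes met the same rule was not computed, so the count of 4 is no result about the members. The share of genes past 1.5-fold in Langerhans-like, sebaceous-like and suprabasal keratinocyte-like cells is not given here. C1qb in the SAR131675 pair had a log2 ratio of 0.96 in Langerhans-like cells (52 against 21 UMIs) and -0.18 in macrophage-like cells. C1qb had 6.90 and C1qc 7.43 in chondrocyte-like cells of the same pair, where 16.2% of genes were called. In macrophage-like cells these genes had -0.18 and -0.060. Of the 130 chondrocyte-like cells of the SAR131675 library, 18 held at least 3 C1q UMIs and 555 of the 566 C1q UMIs; 12 of these 18 were marked as doublets by Scrublet, and they held 951 UMIs of the 10 macrophage markers against 1048 in all other cells of the class. Cd55 in the LNR pair had -0.80 in Langerhans-like cells (25 against 52 UMIs, 10.48% against 11.41% of cells) and 0.088 in synovial lining-like cells. Ratios of at least 1.5-fold with the opposite sign and both intervals clear of 0 in classes where fewer cells had a UMI were, in the SAR131675 pair, 1.00 for C3 in synovial lining-like cells, 3.66 and 1.65 for Cd55 in smooth muscle-like and sebaceous-like cells, and 0.65 and 0.77 for C1qb and C1qc in suprabasal keratinocyte-like cells. Cd55 in fibroblast-like cells of that pair, below 1.5-fold, had 0.15 (0.10 to 0.20).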

How the results depend on the processing

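Of 125 alternative values for the ratios in leading classes, 111 stayed within the spread of the main value and 14 moved. Choosing cells by marker UMIs in place of clusters moved 12: for SAR131675 C1qa -0.043, C1qb -0.25, C1qc -0.12, C3 -1.94, Cfb -0.075, C5ar1 0.31 and Cd55 -0.62, and for LNR C1qb 0.065, C3 2.28, Cfb 0.13, C5ar1 -0.58 and Cd55 0.34. The C3 values rest on 6, 1, 4 and 4 adventitial cells, and C3 in both pairs and Cd55 in the SAR131675 pair passed 1.5-fold there and under no other alternative. Cd55 had -0.46 for SAR131675 without upper limits on genes and UMIs and 0.15 for LNR as the mean of each cell's CPM. That choice of cells also moved 8 mean levels: C1qa 3163, C1qb 2602, C1qc 3155, C4b 146.3 (then led by Schwann-like cells), Cfb 76.99, C3ar1 338.7, C5ar1 510.8 and Cd55 1575 CPM; it gave no level for C3. Thinning to 1500 UMIs took the mean share of leading-class cells with a UMI from 67.46% to 48.26% for C3, 47.15% to 27.34% for C4b, 30.39% to 14.17% for Cfb, 74.28% to 47.09% for C3ar1 and 91.18% to 61.51% for Cd55. Doublet removal, median-of-ratios scaling and leaving out the 1% of cells with most UMIs moved no ratio. Doublet removal was a weak check, since in control diet it took out 2 of 421 macrophage-like and 0 of 1706 fibroblast-like cells. It took out more synovial lining-like cells in the LNR pair, 72 of 710 in LNR and 71 of 735 in sham. Resolution 1.2 moved none of 17 and left no adventitial class in the SAR131675 pair, so C3 has no value there. The number of genes past 1.5-fold followed the UMI minimum (at least 10, then at least 200, then the main 50): adventitial 2076, 151 and 599 for SAR131675 and 1337, 17 and 291 for LNR, fibroblast-like 2462, 293 and 838 and 1627, 62 and 355, macrophage-like 1945, 97 and 536 and 1622, 11 and 341, neutrophil-like 1891, 65 and 367 and 1356, 11 and 144, synovial lining-like 2063, 170 and 671 and 1698, 39 and 395. No paired analysis was possible because each condition had 1 library and no result came from a test. Depth limits the receptors in neutrophil-like cells of the LNR pair, with 153 and 132 C5ar1 UMIs.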
